A study of Mus musculus with 8 samples.

Results

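The genes described here are the 19 WNT ligand genes of the mouse and 16 genes of WNT co-receptors, WNT-binding receptor kinases, planar cell polarity and Dishevelled proteins. They were listed by gene family and name, and all 35 had a probe set on the array, out of 19938 genes with a probe set of 1 gene symbol. *Wnt4* had a second probe set, and for this gene the brighter one is used. The arrays held 4 groups of samples with 2 technical replicates each. GFP-expressing midbrain dopaminergic (mdDA) neurons were sorted by FACS from the ventral midbrain of *Pitx3GFP/+* embryos at E14.5 and at E13.5 (strain C57BL/6 x 129/Ola, mixed). In these embryos GFP is made from the locus of *Pitx3*, a transcription factor gene of mdDA precursors and neurons, and 1 *Pitx3* allele carries it. The mdDA domain of the ventral midbrain and a lateral domain of the midbrain were laser-microdissected at E12.5 from *BAT-gal* embryos (strain B6D2F1, mixed), with the tissue of 5 embryos pooled. *BAT-gal* is a transgene in which a minimal promoter with LEF1/TCF binding sites drives b-galactosidase, and the mdDA domain was positive and the lateral domain negative for b-galactosidase and PITX3. Both E12.5 groups carry the transgene. The labels give their sex as not determined. The 2 arrays of a group come from the same material, so every standard deviation and p-value below measures technical spread and not the spread between embryos.

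WNT proteins are secreted, lipid-modified glycoproteins. Binding of a WNT to a Frizzled receptor together with LRP5 or LRP6 stabilizes b-catenin, which then acts with LEF1/TCF factors on target genes. The same ligands can also signal without b-catenin, through Frizzled, ROR, RYK or PTK7 receptors and the core polarity proteins CELSR, VANGL and PRICKLE, and Dishevelled proteins serve both branches. In the ventral midbrain, WNT1 is known as the ligand that maintains mdDA progenitors through b-catenin, and WNT5A as a ligand of the polarity branch that shapes the ventral midbrain and the morphology of its neurons.

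The values are log2 levels made by the authors with RMA, which corrects background, brings all arrays to a common distribution and combines the probes of a probe set. Since probe sets differ in how brightly they hybridize, levels are compared between groups and genes are not ranked by level. The exception is the guide to the dim end below, which sets a gene against probe sets of other genes and is rough for that reason. A gene is said to pass, or to be higher or lower, when its Benjamini-Hochberg adjusted p in limma over all 35556 probe sets was below 0.1. No detection call was used here. As a guide to the dim end, the 95th percentile of 1210 probe sets of olfactory and vomeronasal receptor genes was taken on each array. It is called the chemosensory level below. Whether mdDA neurons express any of these genes was not tested, so it is a reference level and not a measured background. It lay at 3.99 to 4.11 on the 4 arrays of sorted neurons and at 4.27 to 4.42 on the 4 arrays of dissected tissue. The median of an array was 4.39 in sorted neurons and 4.57 to 4.60 in dissected tissue, and the arrays of a group correlated at 0.966 to 0.983 over all probe sets. In their mean, markers of mdDA neurons stood on the labelled side. The mean log2 level of 8 such genes was 8.98 and 9.06 at E14.5, 9.17 on both E13.5 arrays, 8.40 on both mdDA domain arrays and 5.39 and 5.41 on those of the lateral domain. Of the 8, 7 passed as higher in the mdDA than in the lateral domain. *Pitx3* did not pass, with means of 7.39 and 6.72 there (log2 difference 0.67, standard error 0.17, adjusted p = 0.228 from limma). The paper lists *Pitx3* among its significantly enriched genes. The mean of 9 progenitor markers was 6.09 and 6.27 at E14.5, 5.86 and 5.98 at E13.5, 7.16 and 7.20 in the mdDA domain and 7.91 and 7.92 in the lateral domain. That of 7 measured markers of dividing cells was 3.96 to 4.15 in all sorted neurons, 5.09 and 5.20 in the mdDA domain and 6.59 and 6.65 in the lateral domain. Markers of erythroid cells (4 measured) averaged 4.09 to 4.25 in sorted neurons and 8.04 to 8.19 in dissected tissue. The part of these other cells in the differences below was not tested. In tissue of mixed cells, fewer cells of a type and less RNA per cell cannot be told apart.

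Among the ligands, *Wnt5a* was the only gene to pass as higher in both mdDA sample types than in the lateral domain. Its log2 level was 8.10 and 7.35 in E14.5 neurons, 7.97 and 7.75 in E13.5 neurons, 6.91 and 7.27 in the mdDA domain and 4.77 and 5.14 in the lateral domain. Neither sorted neurons nor the mdDA domain overlapped with the lateral domain, in which *Wnt5a* still lay above the chemosensory level of both arrays. In the mdDA domain it was 4.40-fold higher than in the lateral domain (log2 difference 2.14, standard error 0.15, adjusted p = 0.0345, limma with paired arrays). It was the single gene of the 35 to pass there, and none was lower, where 2.62% of all probe sets passed (1.52% higher, 1.10% lower). At an unadjusted p below 0.05 in limma there were 6 of the 35 in either direction, beside 13.7% of all probe sets. This standard error rests on differences between same-numbered arrays and lies below the SD of 0.26 between the arrays of each domain. Without mdDA domain replicate 1, mdDA domain replicate 2 or lateral domain replicate 1, and then without pairs, the difference was 2.32, 1.95 and 1.95 with adjusted p = 0.129, 0.141 and 0.115 from limma, and it passed without lateral domain replicate 2.

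In sorted neurons, taken as the mean of E14.5 and E13.5, *Wnt5a* was 7.15-fold higher than in the lateral domain (log2 difference 2.84, standard error 0.24, adjusted p = 8.84e-04 from limma over 8 arrays). This call held in each of the 16 alternatives tried, several of which cannot change the difference itself. Between sorted neurons and the mdDA domain the 4 sorted arrays all lay above the 2 of the domain, by 0.70 on the log2 scale (standard error 0.24), which did not pass (adjusted p = 0.121 from limma). Without replicate 2 of the E14.5 neurons, the lower of its 2 arrays, the difference was 0.89 with adjusted p = 0.0435. Leaving out any other array gave 0.51 to 0.88 and no call (adjusted p = 0.157 to 0.468). It passed in 4 of 16 alternatives in all. The comparisons share arrays, so that they are not independent of each other.

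**Figure D1:**
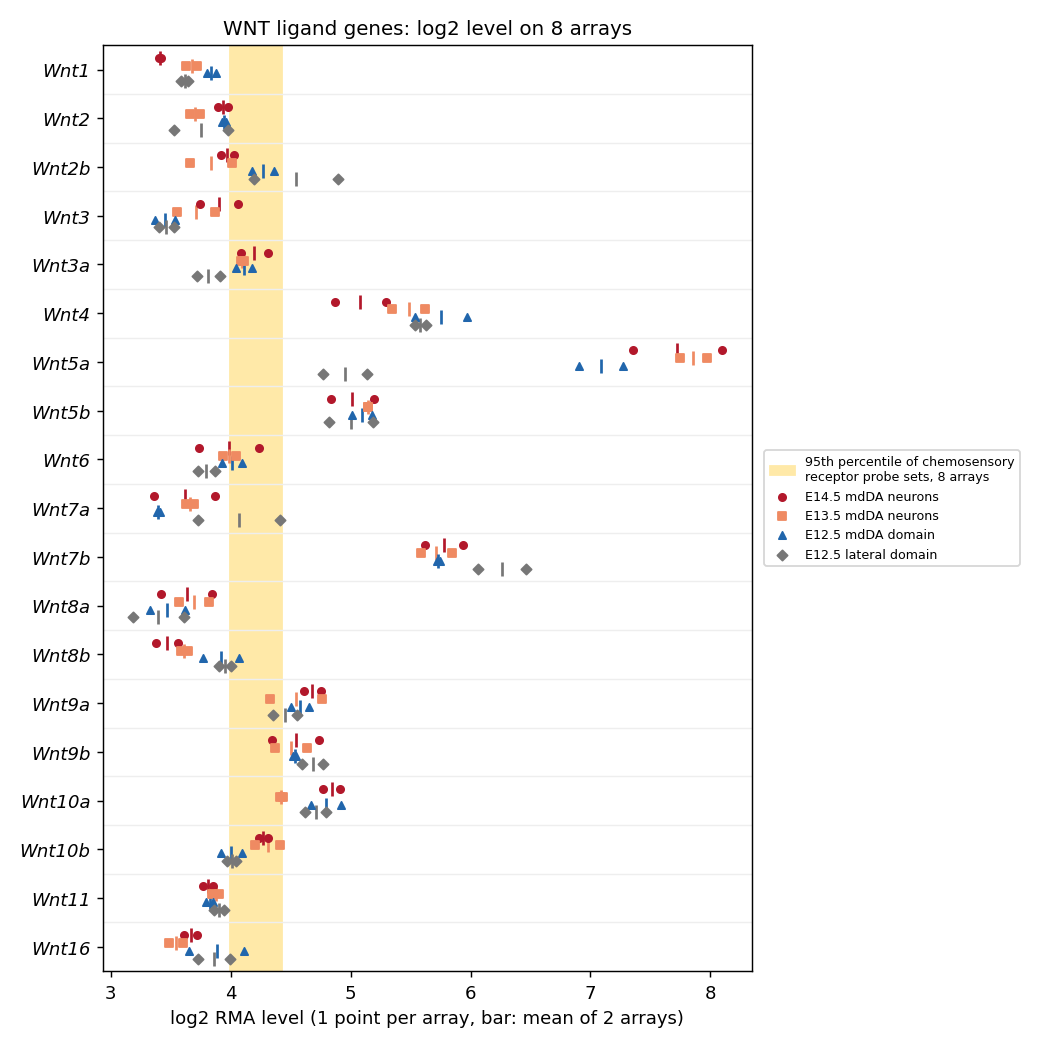
Log2 RMA level (x axis) of the 19 WNT ligand genes (rows) on 8 arrays, with 1 point per array and a bar at the mean of the 2 arrays of E14.5 neurons, E13.5 neurons, mdDA domain and lateral domain. The shaded band spans the chemosensory level of the 8 arrays (3.99 to 4.42), and *Wnt5a* is the ligand whose lateral arrays (4.77 and 5.14) lie far to the left of its other 6.

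The remaining ligands split by their level. Besides *Wnt5a*, 6 ligand genes lay above the chemosensory level on all 8 arrays, namely *Wnt4*, *Wnt5b*, *Wnt7b*, *Wnt9a*, *Wnt9b* and *Wnt10a*. Another 7 were above it on no array, namely *Wnt1*, *Wnt2*, *Wnt3*, *Wnt8a*, *Wnt8b*, *Wnt11* and *Wnt16*. The other 5, *Wnt2b*, *Wnt3a*, *Wnt6*, *Wnt7a* and *Wnt10b*, were above it on some arrays. The lateral arrays of *Wnt3a* also lay below all others, with a group mean of 3.81 beside 4.05 to 4.31 on the arrays of the other groups. It did not pass in any comparison and lay under the chemosensory level on every array of dissected tissue. *Wnt1*, the b-catenin ligand of the midbrain, was at 3.42 and 3.40 in E14.5 neurons, 3.72 and 3.63 in E13.5 neurons, 3.80 and 3.88 in the mdDA domain and 3.59 and 3.65 in the lateral domain. The mdDA arrays were the highest of the 8, yet all 8 lay under the chemosensory level of their arrays, and *Wnt1* did not pass in any comparison. An array value at this level does not show that a transcript is absent. By in situ hybridization, the paper found *Wnt1* transcripts in the lateral floor plate of the midbrain at E12.5, in embryos of another strain.

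*Wnt4*, a ligand of both branches, had 4.87 and 5.29 at E14.5, 5.35 and 5.62 at E13.5, 5.97 and 5.54 in the mdDA domain and 5.63 and 5.54 in the lateral domain, and its groups other than E14.5 overlapped. Its second probe set was dimmer, with group means from 3.93 in the lateral domain to 4.27 at E13.5, and neither probe set passed anywhere. *Wnt5b*, the paralog of *Wnt5a*, had 5.19 and 4.84 at E14.5, 5.14 on both arrays at E13.5, 5.01 and 5.18 in the mdDA domain and 4.82 and 5.18 in the lateral domain. These 4 groups overlapped. *Wnt9a*, *Wnt9b* and *Wnt10a* had group means between 4.42 and 4.84 throughout.

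*Wnt7b*, a ligand of neural progenitors known for its action on brain vessels, had its 2 highest values in the lateral domain. Its level was 5.93 and 5.62 at E14.5, 5.59 and 5.84 at E13.5, 5.72 and 5.74 in the mdDA domain and 6.46 and 6.06 in the lateral domain. In sorted neurons it was 1.43-fold lower than in the lateral domain (log2 difference -0.52, standard error 0.17, adjusted p = 0.0795 from limma). The mdDA domain differed by nearly as much (-0.53, standard error 0.18) and did not pass (adjusted p = 0.323). The related *Wnt7a* differed by -0.68 (standard error 0.22) between the mdDA domain and the lateral domain, which did not pass either (adjusted p = 0.319). Its lateral arrays stood apart from each other, at 4.41 and 3.73, and only the first lay above the chemosensory level. Without replicate 1 of the lateral domain the difference between the domains was -0.34 for *Wnt7a* and -0.33 for *Wnt7b*, and without replicate 2 it was -1.02 for *Wnt7a* and -0.73 for *Wnt7b*. Both genes passed in 1 alternative, the fit of probe sets with 1 gene symbol (adjusted p = 0.0351 for *Wnt7a* and 0.0680 for *Wnt7b*). The *Wnt7b* call in sorted neurons was lost without replicate 1 of the lateral domain (-0.32, adjusted p = 0.393), replicate 1 of E13.5 neurons (-0.45, adjusted p = 0.164), replicate 2 of E14.5 neurons (-0.44, adjusted p = 0.141) or either mdDA array (-0.52, adjusted p = 0.122), and after centring on array medians (-0.31, adjusted p = 0.260).

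Sorted neurons were compared with the lateral domain by the same fit over 8 arrays, in which 25.9% of all probe sets passed (11.4% higher, the rest lower). Of the 35 genes 2 were higher and 8 lower there, a share of 28.6%. The lower ligands besides *Wnt7b* were *Wnt2b*, a b-catenin ligand, and *Wnt8b*, a ligand of the embryonic forebrain and hindbrain. *Wnt2b* had 4.02 and 3.92 at E14.5, 4.01 and 3.66 at E13.5, 4.18 and 4.36 in the mdDA domain and 4.89 and 4.20 in the lateral domain, a log2 difference of -0.64 between sorted neurons and the lateral domain (standard error 0.22, adjusted p = 0.0904 from limma). It was -0.29 (adjusted p = 0.431) without replicate 1 and -0.99 without replicate 2 of the lateral domain, the second a call and the first none. The call was also lost without replicate 2 of E13.5 neurons (adjusted p = 0.180), replicate 1 (adjusted p = 0.130) or 2 (adjusted p = 0.152) of E14.5 neurons or either mdDA array (adjusted p = 0.131). *Wnt8b* differed by -0.41 (standard error 0.13, adjusted p = 0.0760), with all 8 values under the chemosensory level. It did not pass without replicate 1 (adjusted p = 0.306) or 2 (adjusted p = 0.200) of the lateral domain, replicate 1 (adjusted p = 0.127) or 2 (adjusted p = 0.148) of E13.5 neurons or replicate 2 of E14.5 neurons (adjusted p = 0.139). The chemosensory probe sets themselves had a median difference of -0.15 in this comparison, with 107 of 1210 lower and none higher. The part of this shift in the *Wnt2b* and *Wnt8b* differences was not tested. Neither passed after repeated quantile normalization (-0.44 for *Wnt2b*, -0.21 for *Wnt8b*) or after centring on array medians (-0.43 for *Wnt2b*, -0.20 for *Wnt8b*).

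**Figure D2:**
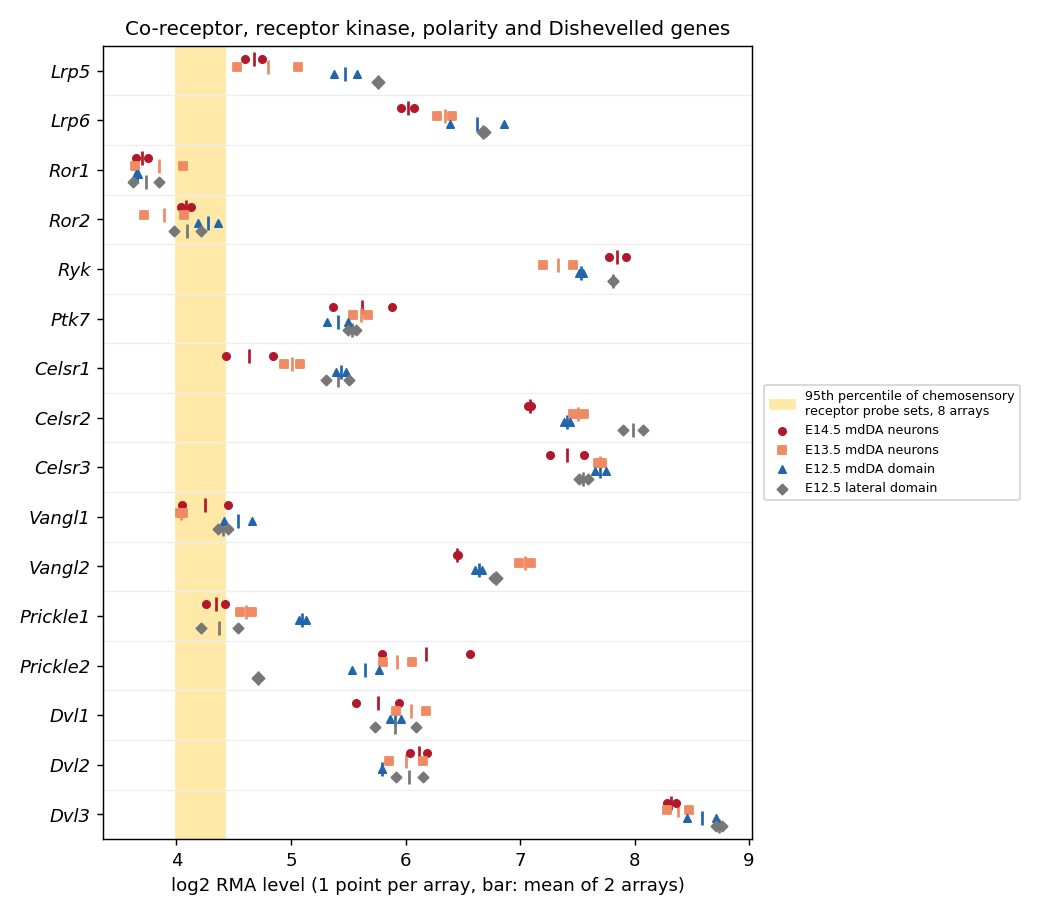
Log2 RMA level (x axis) of the 16 co-receptor, receptor kinase, core polarity and Dishevelled genes (rows) on 8 arrays, with 1 point per array, a bar at the mean of the 2 arrays of a group and the chemosensory level of the 8 arrays shaded. *Lrp5* and *Celsr1* lie further left in both groups of sorted neurons than in both dissected domains, and *Prickle2* lies lowest in the lateral domain.

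Both co-receptor genes of the b-catenin branch were lower in sorted neurons than in the lateral domain. *Lrp5* had 4.75 and 4.60 in E14.5 neurons, 4.53 and 5.06 in E13.5 neurons, 5.57 and 5.38 in the mdDA domain and 5.76 and 5.77 in the lateral domain, with no overlap between sorted neurons and either domain. It was 2.04-fold lower than in the lateral domain (log2 difference -1.03, standard error 0.17, adjusted p = 0.00864 from limma), and this call held in all 16 alternatives. Against the mdDA domain it was 1.67-fold lower (-0.74, standard error 0.17, adjusted p = 0.0398), a call that was lost without replicate 1 (-0.64, adjusted p = 0.217) or replicate 2 (-0.84, adjusted p = 0.120) of the mdDA domain. *Lrp6* had 5.96 and 6.07 at E14.5, 6.28 and 6.41 at E13.5, 6.86 and 6.39 in the mdDA domain and 6.67 and 6.69 in the lateral domain. Its difference from the lateral domain was -0.50 (standard error 0.15, adjusted p = 0.0684 from limma), a call lost in 8 of 16 alternatives. These include leaving out replicate 1 (adjusted p = 0.231) or 2 (adjusted p = 0.250) of the lateral domain, 1 (adjusted p = 0.143) or 2 (adjusted p = 0.105) of E13.5 neurons or 1 of E14.5 neurons (adjusted p = 0.127), and centring on array medians (-0.29, adjusted p = 0.227). The mdDA domain overlapped with E13.5 neurons for this gene. Between the 2 dissected domains *Lrp5* differed by -0.29 and *Lrp6* by -0.05, and neither passed.

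Of the 4 receptor kinase genes none passed in any comparison with limma. At an unadjusted p below 0.05 there was 1 case, *Ryk* between the ages, where 6.06% of all probe sets had such a p. That share was 13.7% between the dissected domains and 27.8% between sorted neurons and the mdDA domain. *Ryk*, whose product binds WNT5A and guides axons, was at 7.92 and 7.78 in E14.5 neurons, 7.46 and 7.20 in E13.5 neurons, 7.55 and 7.52 in the mdDA domain and 7.81 on both lateral arrays. *Ptk7*, which encodes a catalytically inactive kinase needed for planar polarity, had group means of 5.62 at E14.5, 5.61 at E13.5, 5.41 in the mdDA and 5.53 in the lateral domain. *Ror1* and *Ror2*, which encode receptors of WNT5A, stayed close to the chemosensory level, with *Ror1* above it on 1 array and *Ror2* on 2, all of sorted neurons. That level was itself lower on sorted arrays (3.99 to 4.11) than on dissected ones (4.27 to 4.42). The *Ror2* values of the mdDA domain (4.36 and 4.19) lay above those of all sorted arrays. *Ror2* had group means of 4.08 at E14.5, 3.90 at E13.5, 4.28 in the mdDA and 4.10 in the lateral domain.

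Sorted neurons and the mdDA domain were compared over 8 arrays, where 18.4% of all probe sets passed (8.53% higher, 9.84% lower). Of the 35 genes none was higher and 3 were lower in sorted neurons (8.57%), namely *Lrp5* and the polarity genes *Celsr1* and *Prickle1*. At an unadjusted p below 0.05 in limma there were 10 of the 35 in either direction, beside 27.8% of all probe sets. *Celsr1*, which encodes a polarity cadherin of epithelia including the neural tube, had 4.43 and 4.84 at E14.5, 5.08 and 4.94 at E13.5, 5.39 and 5.48 in the mdDA domain and 5.31 and 5.51 in the lateral domain. All 4 sorted arrays lay below all 4 arrays of dissected tissue. The log2 difference was -0.61 from the mdDA domain and -0.58 from the lateral domain (standard error 0.15 for both, adjusted p = 0.0492 and 0.0399 from limma). After centring on array medians, which raises sorted neurons against dissected tissue by 0.20 to 0.21, neither passed (-0.41, adjusted p = 0.126, and -0.37, adjusted p = 0.139). The call against the mdDA domain was also lost without replicate 1 (adjusted p = 0.178) or 2 (adjusted p = 0.200) of the mdDA domain or replicate 2 of E13.5 neurons (adjusted p = 0.106), and that against the lateral domain without its replicate 1 (adjusted p = 0.112) or 2 (adjusted p = 0.225).

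*Prickle1*, whose cytoplasmic product acts with VANGL, had its 2 highest values in the mdDA domain. It had 4.26 and 4.43 at E14.5, 4.55 and 4.66 at E13.5, 5.07 and 5.13 in the mdDA domain and 4.21 and 4.53 in the lateral domain, so that the mdDA arrays lay above all 6 others. Sorted neurons were 1.54-fold lower than the mdDA domain (log2 difference -0.63, standard error 0.13, adjusted p = 0.0310 from limma). This call was lost without replicate 1 (-0.66, adjusted p = 0.140) or 2 (-0.60, adjusted p = 0.143) of the mdDA domain. The mdDA domain exceeded the lateral domain by 0.73 (standard error 0.16), which did not pass in the paired test (adjusted p = 0.168). Without pairs it did not pass on the 4 arrays of the domains (adjusted p = 0.130) and passed on all 8 (adjusted p = 0.0756). It passed in 2 of 13 alternatives, with adjusted p from 0.00985 to 0.390 over all 13.

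*Prickle2*, its paralog, which is expressed in neurons and found at synapses, had another pattern. Its level was 6.56 and 5.79 at E14.5, 5.80 and 6.05 at E13.5, 5.53 and 5.77 in the mdDA domain and 4.70 and 4.72 in the lateral domain. The lateral arrays lay below all others. Sorted neurons were 2.53-fold higher than the lateral domain (log2 difference 1.34, standard error 0.22, adjusted p = 0.00924 from limma), in all 16 alternatives as well. The mdDA domain differed from the lateral domain by 0.94 (standard error 0.15, 1.91-fold) and missed the threshold in the paired test (adjusted p = 0.106). Without pairs it passed on the 4 arrays of the domains (adjusted p = 0.0578) but not on all 8 arrays (adjusted p = 0.169) or with any of the 4 arrays left out (adjusted p = 0.157 to 0.230). It passed in 4 of 13 alternatives, with adjusted p from 0.00149 to 0.230 over all 13.

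**Figure D3:**
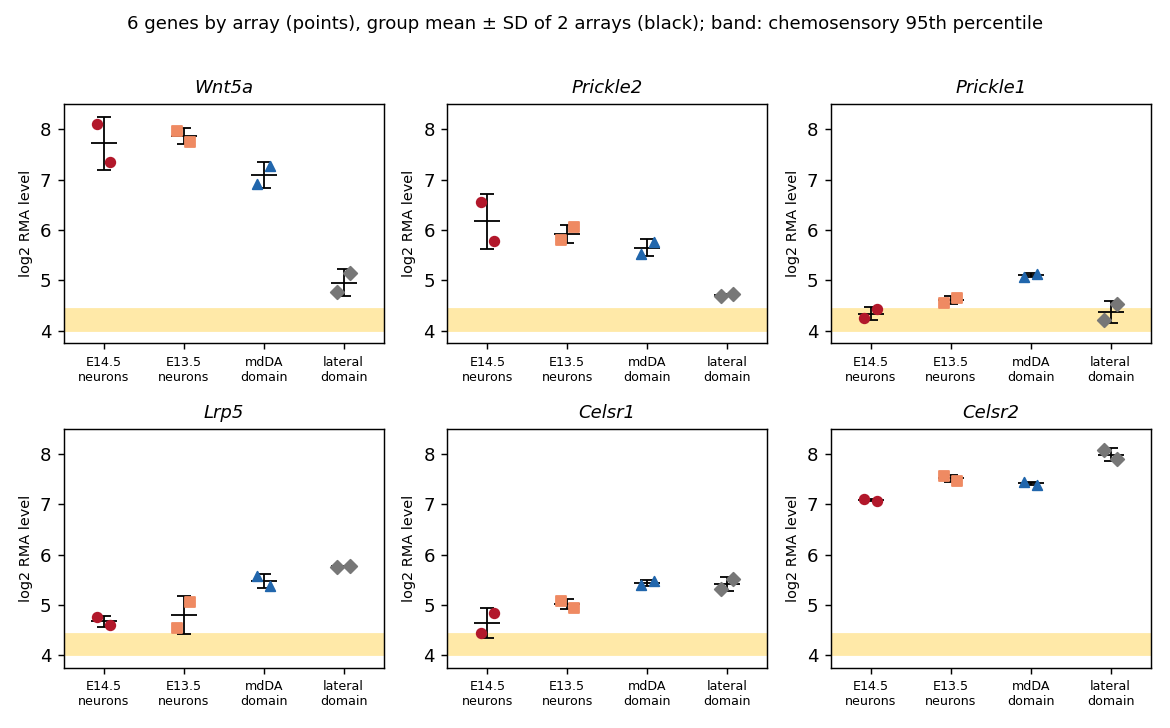
Log2 RMA level (y axis) of 6 genes on each array (points, left to right E14.5 neurons, E13.5 neurons, mdDA domain, lateral domain), with the mean and SD of 2 arrays in black and the chemosensory level shaded. *Wnt5a* and *Prickle2* are lowest in the lateral domain, *Prickle1* peaks in the mdDA domain (5.07 and 5.13), *Lrp5* and *Celsr1* are lowest in sorted neurons and *Celsr2* is highest in the lateral domain (8.07 and 7.90).

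The other polarity cadherin genes went separate ways. *Celsr2*, which encodes a cadherin of neuronal precursors and growing dendrites, had 7.10 and 7.07 at E14.5, 7.56 and 7.46 at E13.5, 7.44 and 7.39 in the mdDA domain and 8.07 and 7.90 in the lateral domain. It was 1.61-fold lower in sorted neurons than in the lateral domain (log2 difference -0.69, standard error 0.11, adjusted p = 0.00701 from limma), in all 16 alternatives too. In the mdDA domain it differed from the lateral domain by -0.57 (standard error 0.15) and did not pass in the paired test (adjusted p = 0.229). It passed in 2 of 13 alternatives (adjusted p from 0.0355 to 0.459 over all 13). *Celsr3*, a gene of axon tract formation, had group means of 7.41 at E14.5, 7.70 at E13.5, 7.70 in the mdDA and 7.55 in the lateral domain and did not pass anywhere. *Vangl2*, the gene of the main transmembrane polarity protein of the neural tube, was at 6.45 and 6.46 at E14.5, 7.10 and 6.99 at E13.5, 6.60 and 6.67 in the mdDA domain and 6.77 and 6.80 in the lateral domain. Here the 2 sorted groups lay on opposite sides of the dissected tissue. *Vangl1* had group means of 4.25 at E14.5, 4.04 at E13.5, 4.54 in the mdDA and 4.41 in the lateral domain, near the chemosensory level.

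The 250 bases before annotated starts of *Prickle2* and *Celsr2* are printed because these 2 polarity genes differed from the lateral domain in opposite directions in all 16 alternatives and have an entry in the RefSeq promoter table (GRCm38.p6). That table held 34 starts of 27 of the 35 genes. Of *Prickle2* the outermost of 4 starts and the start with a motif match are shown. Capitals mark CTTTGAT or its reverse complement ATCAAAG, a core of the LEF1/TCF binding site as it stands in b-catenin reporters. The paper gives a wider WNT-responsive element, CTTTG and then A or T at both next positions. Its other forms were not searched, and the counts of matches hold for CTTTGAT alone. Of those forms, ctttgta stands unmarked in the inner *Prickle2* window.
*Prickle2*, outermost start, minus strand of chr6:92706185-92706434: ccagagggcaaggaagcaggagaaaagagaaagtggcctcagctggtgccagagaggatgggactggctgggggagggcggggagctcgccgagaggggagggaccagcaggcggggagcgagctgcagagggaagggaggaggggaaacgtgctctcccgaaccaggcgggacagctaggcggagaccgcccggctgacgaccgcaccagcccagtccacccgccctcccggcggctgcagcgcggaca
*Prickle2*, inner start, minus strand of chr6:92567367-92567616: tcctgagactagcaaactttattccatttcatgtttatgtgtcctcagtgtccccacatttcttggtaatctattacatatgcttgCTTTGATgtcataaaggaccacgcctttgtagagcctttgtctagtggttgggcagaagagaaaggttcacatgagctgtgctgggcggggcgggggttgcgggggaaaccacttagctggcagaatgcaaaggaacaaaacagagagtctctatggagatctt
*Celsr2*, minus strand of chr3:108415580-108415829: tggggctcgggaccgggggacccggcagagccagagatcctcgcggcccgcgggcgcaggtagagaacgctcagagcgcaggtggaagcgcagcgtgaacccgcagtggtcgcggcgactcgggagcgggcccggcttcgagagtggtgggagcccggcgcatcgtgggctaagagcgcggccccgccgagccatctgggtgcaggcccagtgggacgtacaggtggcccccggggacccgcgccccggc
The match in the inner *Prickle2* window begins 164 bases before the start. The other 3 *Prickle2* starts and the *Celsr2* start had no match. Of the windows of the 35 genes, 3 of 34 held one (8.82%), the others being single starts of *Wnt5b* and *Wnt11*, against 3.21% of all 32851 windows. The array values do not tell which start was used, and a match is a sequence feature and not a bound site.

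The Dishevelled genes, whose products pass the signal on in both branches, varied little. *Dvl3* was 8.36 and 8.28 at E14.5, 8.47 and 8.29 at E13.5, 8.46 and 8.71 in the mdDA domain and 8.77 and 8.71 in the lateral domain. Its difference between sorted neurons and the lateral domain was -0.39 (standard error 0.12, adjusted p = 0.0760 from limma), a call lost in 8 of 16 alternatives. These include leaving out replicate 1 (adjusted p = 0.285) or 2 (adjusted p = 0.224) of the lateral domain, 1 (adjusted p = 0.109) or 2 (adjusted p = 0.134) of E14.5 neurons or 2 of E13.5 neurons (adjusted p = 0.156), and centring on array medians (-0.18, adjusted p = 0.387). *Dvl1* had group means of 5.76 at E14.5, 6.05 at E13.5, 5.91 in both domains. *Dvl2* had means of 6.11 at E14.5, 6.01 at E13.5, 5.79 in the mdDA and 6.03 in the lateral domain. Neither passed in any comparison.

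**Figure D4:**
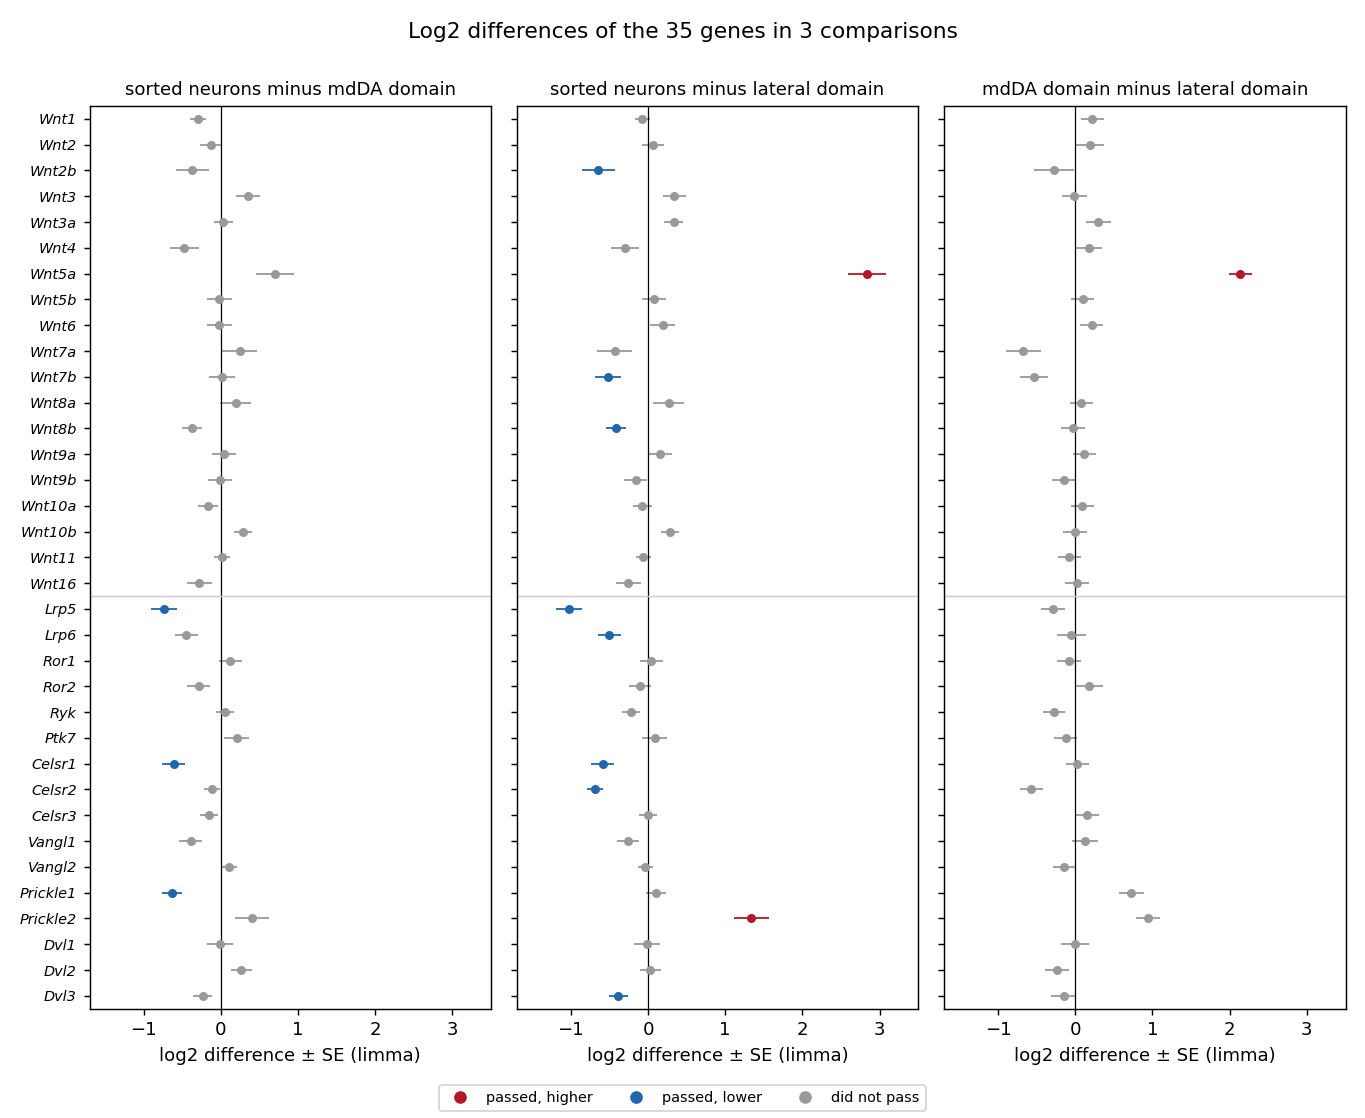
Log2 difference with its standard error (x axis) of the 35 genes (rows) between sorted neurons and the mdDA domain (left), sorted neurons and the lateral domain (middle) and the mdDA domain and the lateral domain (right), with genes that passed at a false discovery rate below 10% in red (higher) or blue (lower). In the middle panel *Wnt5a* (2.84) and *Prickle2* (1.34) stand to the right and *Lrp5* (-1.03) furthest to the left, and in the right panel *Wnt5a* alone passed.

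Between the 2 ages of sorted neurons no gene of the 35 passed in limma over their 4 arrays, and none of all 35556 probe sets did (0%). At an unadjusted p below 0.05 there were 4 of the 35, beside 6.06% of all probe sets. These were *Vangl2*, with a log2 difference of -0.59 between E14.5 and E13.5 (standard error 0.13, adjusted p = 0.744), *Ryk* at 0.52 (standard error 0.16, adjusted p = 0.781), *Celsr2* at -0.43 and *Wnt10a* at 0.42. The arrays of the 2 ages did not overlap for 13 of the 35, where 36.0% of all probe sets did not overlap.

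Over all 35 genes the median log2 difference stayed near 0. It was -0.02 between sorted neurons and the mdDA domain, -0.06 between sorted neurons and the lateral domain and -0.00050 between the mdDA domain and the lateral domain, where all probe sets had medians of -0.08, -0.09 and -0.01. Arrays did not overlap for 12, 14 and 16 of the 35 in these comparisons, beside 37.3%, 42.3% and 43.8% of all probe sets. Sorted neurons and dissected tissue also differ in stage, strain, genotype, isolation and the experiment in which the arrays were run, which cannot be told apart. Markers of other cells also differed in these comparisons. Of 9 progenitor markers 8 were lower in sorted neurons than in the mdDA domain, all but *Slc1a3*, and 8 than in the lateral domain, all but *Hes1*. Of 7 markers of dividing cells 6 were lower in sorted neurons than in the mdDA domain and 7 than in the lateral domain. Of 4 erythroid markers all were lower against both domains, and of 7 endothelial and mural markers 5 against the mdDA domain and 4 against the lateral domain. Of 6 markers of GABAergic neurons 5 were lower and 1 higher in sorted neurons than in the lateral domain, and 4 were higher than in the mdDA domain. Of 3 alar plate markers all were lower than in the lateral domain and 1 was higher than in the mdDA domain. Between the dissected domains 6 of 6 GABAergic markers (median log2 difference -2.97), 3 of 3 alar plate markers (-3.09), 6 of 7 dividing-cell markers (-1.41) and 3 of 9 progenitor markers (-0.53) were lower in the mdDA domain. The part of GABAergic and alar plate cells in the differences of the 35 genes was not tested either.

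Other genes of the pathway were counted in the same fits. Of all probe sets 18.4% passed between sorted neurons and the mdDA domain, 25.9% between sorted neurons and the lateral domain and 2.62% between the domains. Of 3 genes of WNT secretion, *Wls*, which encodes the carrier of WNT proteins to the cell surface, was lower in sorted neurons than in both domains (-0.74 on the log2 scale from the mdDA domain, adjusted p = 0.0254, and -0.70 from the lateral domain, adjusted p = 0.0185). *Porcn*, the gene of the enzyme that attaches the lipid to WNT proteins, was higher than in the lateral domain by 0.55 (adjusted p = 0.0521). *Notum*, the gene of an enzyme that removes this lipid, did not pass. Of 10 Frizzled receptor genes 5 were lower and none higher in sorted neurons than in the lateral domain, with *Fzd2* and *Fzd1* at -2.09 each, *Fzd9* at -0.88 and *Fzd7* at -0.65. Against the mdDA domain *Fzd8* was higher by 1.10 and *Fzd2* and *Fzd6* were lower (-0.78 and -0.41). Of the 10, 3 were lower in the mdDA than in the lateral domain.

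Of 24 further genes of polarity components and effectors 23 were measured. None passed between the mdDA domain and the lateral domain in limma, where 2.62% of all probe sets did. At an unadjusted p below 0.05 there were 7 of the 23, beside 13.7% of all probe sets. In sorted neurons 5 were higher and 1 lower than in the mdDA domain, and 7 were higher and 2 lower than in the lateral domain, a share of 26.1% and 39.1%, beside 18.4% and 25.9% of all probe sets. *Dact1*, the gene of a Dishevelled-binding protein, had group means of 7.44 at E14.5, 7.04 at E13.5, 5.79 in the mdDA and 5.10 in the lateral domain. Its log2 difference was 1.45 between sorted neurons and the mdDA domain (adjusted p = 0.00585) and 2.15 between sorted neurons and the lateral domain (adjusted p = 5.09e-04). *Daam1*, which encodes a formin downstream of Dishevelled, was higher in sorted neurons than in the lateral domain by 1.24, *Fjx1*, the homolog of a *Drosophila* polarity kinase gene, by 1.33 and the ubiquitin ligase gene *Smurf1* by 0.72. *Smurf1* was also higher than in the mdDA domain (0.56), as was *Wdpcp*, a gene of a polarity effector needed for cilia (0.51), while *Fat4*, which encodes an atypical cadherin, was lower there (-0.66).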

How the data were processed

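RNA of 4 groups was hybridized on Affymetrix Mouse Gene 1.0 ST arrays, 8 in all. The values deposited by the authors are log2 levels of probe sets. They come from the RMA routine of Affymetrix Expression Console 1.2 (standard settings, sketch-quantile) and were used unchanged. The genome build is not given in the sources used here. GEO's platform annotation gave the gene of each probe set. Of 35556 probe sets 21789 had 1 symbol, 1621 several and 12146 none in the table used, and all 35 gene identifiers matched the reference symbol. Of several probe sets of a gene, the brightest on average was taken.

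limma 3.58.1 in R 4.3.3 was fitted on all probe sets, with a false discovery rate below 10% (Benjamini-Hochberg). The mdDA and lateral domains were compared on their 4 arrays with the replicate number as a block, since the methods name a paired limma test without saying what pairs the arrays. Sorted neurons (both ages averaged) were set against each domain in a fit of 8 arrays, and the ages against each other in one of 4 arrays, without a block. A difference with its error is given where a gene passed or its absolute log2 difference was at least 0.5. Up to 4 passing genes of each further list are named. The genes were listed by name and not by a threshold on their values, but they and the lists were chosen with earlier results of these data known. The fits were tested on simulated data. Alternatives were the block, the arrays fitted, quantile normalization, median centring, a filter on dim probe sets, eBayes options, 1-symbol probe sets, a 5% rate, averaged probe sets and leaving out each array. Python 3.11.15, pandas 2.3.3 and matplotlib 3.10.9 were also used. The number of arrays limits the precision.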

Additional observations from a re-analysis of the deposited data

How the results depend on the processing

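Alternatives were run for the counts of the 35 genes and for 22 of their differences, those that passed or were at least 0.5 in size. None of these 22 changed its sign in 326 alternative values, of which 256 kept their side of the threshold, 56 lost it and 14 gained it. Only quantile normalization, centring and leaving out an array of a compared group can change the size of a difference. The other alternatives leave it as it was and bear on the threshold alone, so a kept sign tells nothing there. Averaging probe sets leaves the test of these differences nearly unchanged as well, since only *Wnt4* has a second probe set. Between the mdDA domain and the lateral domain, the genes higher numbered 2 instead of 1 with no replicate block, with all 8 arrays and no replicate block, with the filter on dim probe sets and with trend and robust priors, and 3 among probe sets with 1 gene symbol. The genes lower numbered 1 instead of 0 with all 8 arrays and no block and 3 among probe sets with 1 gene symbol. Leaving out an array gave 0 to 1 higher, in fits in which the lone array is assumed to vary like the other domain. Between sorted neurons and the mdDA domain, 2 genes were higher instead of 0 after repeated quantile normalization, 5 after centring on array medians, and 1 each with the filter on dim probe sets and among probe sets with 1 gene symbol. In that last setting 5 instead of 3 were lower. Leaving out an array gave 0 to 2 higher and 0 to 4 lower. Between sorted neurons and the lateral domain, 5 genes were higher instead of 2 after quantile normalization and after centring. The genes gained in both were the ligands *Wnt3*, *Wnt3a* and *Wnt10b*, none of which lay above the chemosensory level in dissected tissue. In the same comparison 5 instead of 8 were lower with the replicate block, 2 after centring and 3 at a rate of 5%. Leaving out an array gave 2 to 6 lower. The E14.5 and E13.5 neurons gave 0 calls in each alternative. The cause of these changes was not tested.

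Centring raised sorted neurons over the mdDA domain, so that the median difference of all probe sets was 0.12 instead of -0.08, and over the lateral domain 0.12 instead of -0.09. The probe sets higher and lower were then 5580 and 1782 instead of 3032 and 3500 (75.8% higher instead of 46.4%) against the mdDA domain and 6705 and 2732 instead of 4057 and 5141 (71.1% instead of 44.1%) against the lateral domain. The replicate numbers did not visibly pair the arrays, with correlations of deviations from -0.037 to 0.013 between groups, so the block serves as the methods' pairing and no more. Signal over background limits the dim genes, and 7 ligand genes lay under the chemosensory level on every array.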
